A study of Mus musculus with 30 samples.

Results

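The rod phototransduction cascade was followed in developing mouse retinal organoids through 9 genes, chosen by symbol from a list of named members and not by their measured values. They encode subunits of rod transducin (Gnat1, Gngt1), of rod phosphodiesterase 6 (Pde6a, Pde6b, Pde6g) and of the rod cyclic nucleotide-gated channel (Cnga1, Cngb1), and the shut-off proteins rod arrestin (Sag) and the visual pigment kinase (Grk1). All 9 were found under their symbols among 45594 genes, each with 1 identifier, and all 9 were among the 19897 genes with enough counts to be tested.

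The organoids came from 1 clone of induced pluripotent stem cells (iPSCs), reprogrammed with doxycycline-inducible Oct3/4, Sox2, Klf4 and c-Myc lentiviruses from fibroblasts of wild-type Nrl-GFP mice at embryonic day 14.5. In this reporter strain green fluorescent protein is expressed from the promoter of Nrl, which encodes the factor that specifies rods; every sample carries the reporter, no sort for it is described in the labels, and no other genotype was used. Collections were made on 10 days of differentiation: the first at D0, D4 and D7, the next at D10, D12 and D15, then at D18, D22 and D25, and the last at D32, with 3 libraries a day that the labels call biological replicates. D0 was undifferentiated iPSCs grown on feeder cells, D4 was whole aggregates (36 per library), and from D7 on neural retina was cut out of the organoids and pooled (30 organoids at D7, 20 at D10 and 12 from D12). The cultures were kept in 5% oxygen to D10 and in 20% after it, in medium with taurine, 9-cis retinal and insulin-like growth factor 1 from D10 to D26, and with B27 and serum added from D26. Since all libraries come from 1 clone, the spread between them is that of separate organoid pools and not of separate cell lines.

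In the deposited GRCm38.p4 coordinates the genes are spread over 7 chromosomes. Gnat1 lies on chromosome 9 (107674474 to 107679712, minus strand) and Gngt1 on chromosome 6 (3993792 to 3997436, plus strand). Pde6a lies on chromosome 18 (61220482 to 61289924, plus strand), Pde6b on chromosome 5 (108388391 to 108432397, plus strand) and Pde6g on chromosome 11 (120447605 to 120453500, minus strand). Cnga1 is also on chromosome 5 (72603696 to 72644275, minus strand), and Cngb1 is on chromosome 8 (95239045 to 95306585, minus strand). Sag is on chromosome 1 (87803680 to 87845158, plus strand) and Grk1 on chromosome 8 (13405081 to 13421945, plus strand). In the GENCODE M21 annotation the gene spans of Cnga1 and Pde6a each hold a processed pseudogene (Gm5297 on the same strand and Rps2-ps10 on the opposite strand), and no exon of a member overlaps an exon of another gene.

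In rods, light-activated visual pigment switches on transducin, whose alpha subunit relieves the inhibitory gamma subunit of phosphodiesterase 6. The enzyme then hydrolyses cyclic GMP, the cation channel of the outer segment closes, and the cell hyperpolarises. The pigment kinase and arrestin end the response by phosphorylating and capping the active pigment. Cones run the same cascade with their own paralogs of most of these proteins. In the mouse retina rods are born over a long period around birth, after most cones, and assemble their outer segments in the weeks that follow.

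Since the 9 genes rose in the same tissue, the bases in front of their starts were searched for the cores of sites bound by the photoreceptor factors Crx and Otx2 (TAATCC) and by Nrl (TGCTGA), on both strands. RefSeq promoter entries (GRCm38.p6) were matched for 6 of the 9 members: Sag, Cnga1, Pde6b, Gngt1, Grk1 and Cngb1. In the 250 bases before the start, TAATCC was present in 4 of these 6 windows and in 6.25% of all 32851 windows, and TGCTGA was present in 2 of the 6 and in 16.1% of all. Sag, Cnga1, Pde6b and Cngb1 are printed because they hold the matches of both kinds and stand for early and late members alike; capitals mark a match, which on the opposite strand reads GGATTA for TAATCC. Sag holds TAATCC on the opposite strand 87 to 82 bases before its start and TGCTGA 187 to 182 bases before it, Cnga1 holds TAATCC 228 to 223 bases before, Pde6b holds TGCTGA 8 to 3 bases before, and Cngb1 holds TAATCC at 58 to 53 and again at 25 to 20 bases before. The RefSeq start of Cnga1 lies 1523 bases inside the gene span of the deposited table. TAATCC was also matched in Gngt1, whose RefSeq start lies 216 bases inside the deposited gene and which is not printed. No match overlapped another, and a match is a run of letters and no measure of binding.
Sag (chr1:87803430-87803679, plus strand, GRCm38.p6): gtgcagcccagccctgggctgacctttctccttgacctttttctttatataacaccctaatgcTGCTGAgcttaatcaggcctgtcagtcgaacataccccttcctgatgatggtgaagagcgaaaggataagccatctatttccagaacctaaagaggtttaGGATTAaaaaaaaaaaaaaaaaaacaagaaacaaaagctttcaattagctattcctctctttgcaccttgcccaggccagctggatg
Cngb1 (chr8:95306586-95306835, minus strand, GRCm38.p6): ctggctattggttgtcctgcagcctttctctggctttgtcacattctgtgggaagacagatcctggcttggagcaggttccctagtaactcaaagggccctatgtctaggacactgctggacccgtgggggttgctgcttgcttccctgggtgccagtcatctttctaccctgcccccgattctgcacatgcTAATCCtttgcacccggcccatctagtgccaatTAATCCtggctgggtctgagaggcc
Pde6b (chr5:108388123-108388372, plus strand, GRCm38.p6): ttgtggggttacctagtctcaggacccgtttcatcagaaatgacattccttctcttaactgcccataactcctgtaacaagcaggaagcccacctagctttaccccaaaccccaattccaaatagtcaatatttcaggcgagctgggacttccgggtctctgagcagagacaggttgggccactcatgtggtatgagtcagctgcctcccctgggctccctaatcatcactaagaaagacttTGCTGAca
Cnga1 (chr5:72642753-72643002, minus strand, GRCm38.p6): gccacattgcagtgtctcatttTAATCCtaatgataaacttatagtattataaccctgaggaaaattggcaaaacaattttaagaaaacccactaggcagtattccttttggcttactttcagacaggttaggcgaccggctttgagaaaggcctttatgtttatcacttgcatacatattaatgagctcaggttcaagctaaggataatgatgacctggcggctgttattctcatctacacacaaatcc

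Library totals ranged from 16.77 to 24.53 M estimated counts. The libraries fall into a pair of sets, called processing sets here, told apart by the share of counts that pseudogenes of Rpl3 took: 12 to 31.8% in set 1 (the D0 and D7 libraries and, from D10 to D25, replicate 2) and 70.9 to 86.5% in set 2 (the D4 and D32 libraries and, from D10 to D25, replicates 1 and 3). The sets were drawn from these counts, cut at a share of 50%, and not from the labels. Their name is a working one, and what divides them was not tested. Levels below are CPM (estimated counts per 1000000 of the scaled library), and changes are log2 ratios of the later over the earlier day with their standard error (SE), tested with edgeR's quasi-likelihood test and called at a Benjamini-Hochberg adjusted p below 0.05 over all tested genes. The rod markers Nrl and Nr2e3, a list that the members are not part of, summed to 1080 to 1340 CPM at D32, against 32 to 78.9 CPM at D18. Since these are bulk samples, more rods and more RNA per rod cannot be told apart.

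Over the course as a whole the cascade was low to D12 and was called higher gene by gene between D15 and D32. Day means to D12 were at most 9.74 CPM (Sag at D0), and Gnat1, Sag, Grk1, Pde6g and Cngb1 had counts in every library. All 9 members changed over the 10 days, as did 91.4% of all tested genes. No member was called higher in any step from D0 to D12, where 27, 20, 20 and 2.52% of tested genes were called higher at D4, D7, D10 and D12 against the day before. Gnat1 was lower at D4 than at D0 (log2 change -2.17, SE 0.46, adjusted p = 0.00031; 24.8% of genes called lower) and Pde6a lower at D7 than at D4 (-2.40, SE 0.92, adjusted p = 0.037; 22.8% called lower). The D0 and D7 libraries are of set 1 and the D4 libraries of set 2, so day and processing set cannot be told apart in both of these calls. The number called higher was then 1 of 9 at D15 against D12 (Gngt1; the background, the share of all tested genes called higher, was 5.13%), 5 at D18 against D15 (Gngt1, Pde6b, Pde6g, Cngb1 and Sag; background 1.91%) and 8 at D22 against D18 (all but Gnat1; background 3.75%). It was 7 at D25 against D22 (all but Gnat1 and Grk1; background 1.45%) and 6 at D32 against D25 (Gnat1, Gngt1, Pde6a, Pde6g, Cnga1 and Grk1; background 9.31%). No member was called lower after D7. From D18 to D32 all 9 were called higher, beside 20.6% of all tested genes, with a median log2 change of 7.11 against -0.01 over all tested genes.

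Some of these counts changed when 1 library was left out or fewer libraries were fitted. At D18 against D15 the count was 3 without D15 replicate 1 or without D15 replicate 3, where Cngb1 (3.15 and 3.02, against 3.16 with all libraries) and Sag (1.81 and 1.75, against 1.85) missed the threshold at changes close to the full ones. It was also 3 without D18 replicate 2, where both changes were smaller (1.62 for Cngb1 and 1.26 for Sag), and 2 within set 2. At D25 against D22 the count was 4 when only the 6 libraries of the pair were fitted, with the changes of Pde6b (1.61, against 1.64), Cngb1 (2.37, against 2.4) and Sag (1.45, against 1.47) nearly the same but not called. It was 3 without D22 replicate 1, without D25 replicate 2 or within set 2. That at D15 against D12 was 2 without D12 replicate 2. Medium and serum changed at D26, so the step from D25 to D32 and the change of culture cannot be told apart.

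**Figure D1:**
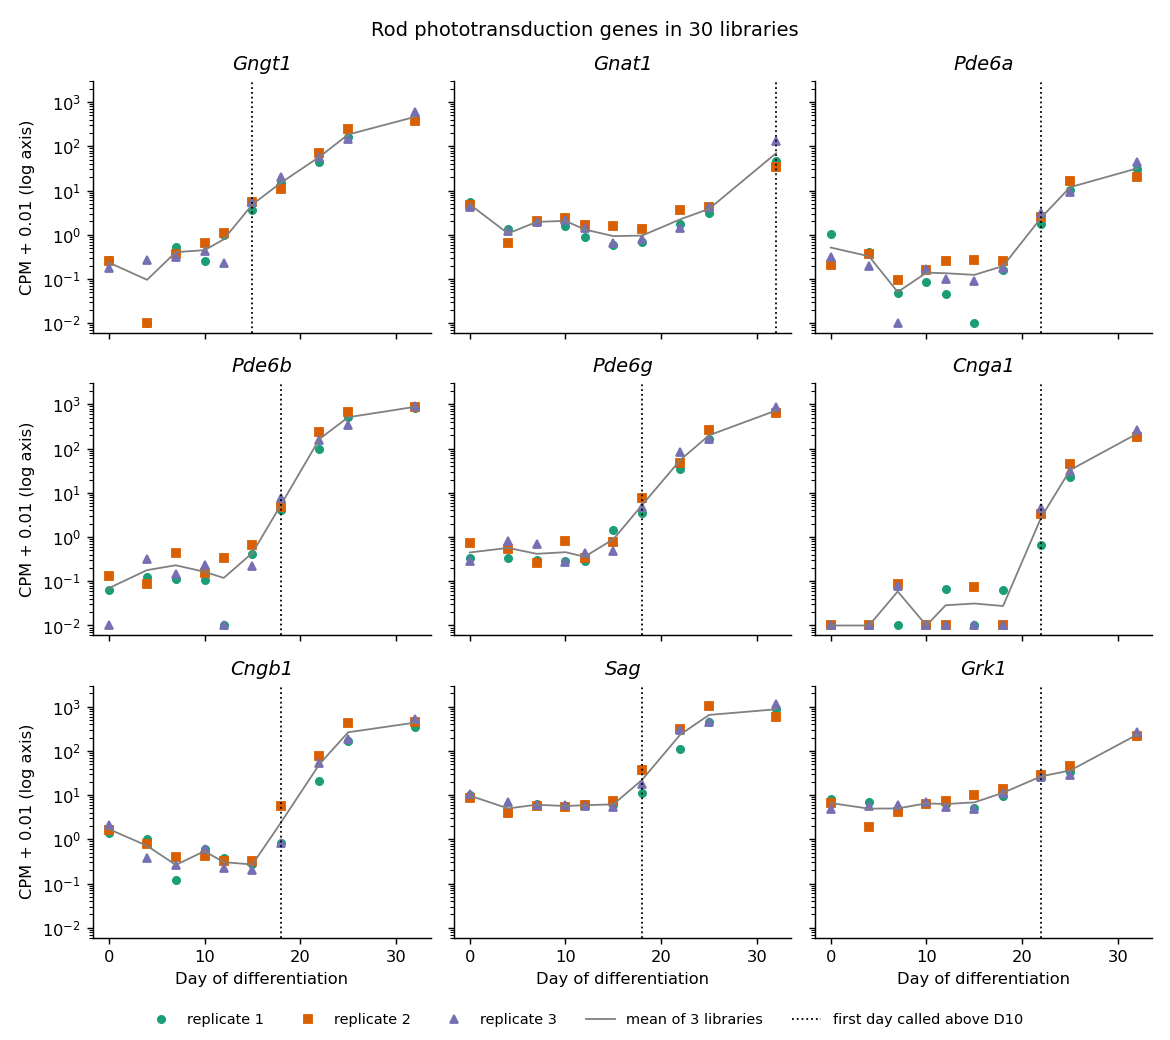
Level of each of the 9 genes in the 30 libraries (CPM + 0.01, log axis) by day of differentiation; symbols are the 3 replicates, the line is their mean and the dotted line is the first day called above D10 and on every later day. Gngt1 is the first called above D10, at D15, and Gnat1 the last, at D32. Gnat1, Sag and Grk1 start from several CPM and Cnga1 from 0.

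The transducin subunits bracketed the order of calls: gamma was the first of the 9 genes called higher and alpha the last. By coding transcript, Sag (log2 change 3.05, adjusted p = 0.16) and Pde6b (3.17, adjusted p = 0.13) also had changes at D15 against D12, which did not pass the test. Gngt1, the gamma subunit that anchors transducin to the membrane, stood at 3.6, 5.42 and 5.52 CPM in the 3 D15 libraries, against 1, 1.11 and 0.218 CPM in the D12 libraries, and the 2 days did not overlap (log2 change 2.59, SE 0.4, adjusted p = 0.00016). It had 14.6, 10.7 and 20.2 CPM at D18, 44.7, 71.4 and 57.4 at D22, 161, 244 and 148 at D25, and 406, 382 and 611 at D32. Each of these days lay above the one before it in all libraries, with log2 changes of 1.64, 1.93, 1.67 and 1.34, the last of them over 7 days and the others over 3 or 4. Gnat1, the alpha subunit that carries the signal to the phosphodiesterase, had 0.691, 1.36 and 0.794 CPM at D18, 1.74, 3.57 and 1.4 at D22, and 3.06, 4.31 and 4.18 at D25. Neither of those steps passed the test (log2 change 1.25, adjusted p = 0.1 for D22 against D18, and 0.79, adjusted p = 0.37 for D25 against D22). At D32 it had 47, 34.1 and 129 CPM, all above every D25 library, and the change was 4.18 (SE 0.44, adjusted p = 9.2e-08). The D32 libraries of Gnat1 differed among themselves more than those of any other member, with replicate 3 well above the other two.

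The subunits of phosphodiesterase 6 came on in the order of the beta and gamma subunits at D18 and the alpha subunit at D22. Pde6b, the catalytic beta subunit, had 3.98, 4.66 and 7.73 CPM at D18, against 0.414, 0.661 and 0.207 CPM at D15 (log2 change 3.67, SE 0.49, adjusted p = 3.8e-05). It then had 97.8, 244 and 153 CPM at D22, 526, 662 and 351 at D25, and 826, 893 and 930 at D32. Its change at D22 against D18, 4.92 (SE 0.37, adjusted p = 1.4e-08), was the largest step of any member that had counts in every library of both days. Pde6g, the inhibitory gamma subunit, had 3.51, 7.61 and 4.73 CPM at D18, against 1.45, 0.744 and 0.462 CPM at D15 (2.55, SE 0.42, adjusted p = 0.00063). It reached 35.3, 47.6 and 84.1 CPM at D22, 167, 270 and 165 at D25, and 679, 650 and 859 at D32. Pde6g was still rising at D32 (1.86 against D25, SE 0.3, adjusted p = 5.6e-05), whereas the change of Pde6b at D32 against D25 was 0.78 (SE 0.31) and missed the threshold at an adjusted p of 0.065. All D32 libraries of Pde6b still lay above all its D25 libraries. Apart from leaving out single libraries, 5 alternative settings called that step of Pde6b and 6 did not. Pde6a, the catalytic alpha subunit, had 1.77, 2.57 and 3.03 CPM at D22, against 0.15, 0.241 and 0.167 CPM at D18 (3.75, SE 0.58, adjusted p = 0.00012), with 9.19 to 16.3 CPM at D25 and 31.1, 19.8 and 44.1 CPM at D32. The D25 and D32 libraries of Pde6a did not overlap, and the change between them (1.42, SE 0.41, adjusted p = 0.014) lost its call without D25 replicate 1, D25 replicate 3 or D32 replicate 3.

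Of the channel subunits, Cngb1 was called higher before Cnga1 by gene estimate. By coding transcript, Cngb1-001 and Cnga1-001 were both first called above D10 at D22. Cngb1, the modulatory beta subunit, had 20.6, 76.9 and 53.1 CPM at D22, against 0.8, 5.69 and 0.819 CPM at D18 (log2 change 4.38, SE 0.52, adjusted p = 5.4e-06), then 171, 434 and 188 at D25 and 339, 456 and 516 at D32. It was called higher already at D18 against D15 (3.16, SE 0.8, adjusted p = 0.027), where the D15 libraries had 0.268, 0.321 and 0.193 CPM. That call rests on D18 replicate 2: without it the change was 1.62 with an adjusted p of 0.39. Cnga1, the subunit that forms a channel by itself, had 0 counts in all D10 libraries and 1 count in all over the 3 D18 libraries. It had 0.659, 3.36 and 4.49 CPM at D22, 22.7, 44.6 and 31.2 at D25, and 197, 188 and 270 at D32. The ratio of D22 over D18 was 184 with a 95% interval of 32.6 to 7320 that covers counting error only, and D32 was at least 4640-fold higher than D10, taking 3 counts over the 3 D10 libraries as the floor. Each later step of Cnga1 was called (3.53 at D25 against D22 and 2.73 at D32 against D25), whereas the change of Cngb1 at D32 against D25 was 0.72 (SE 0.43) and did not pass (adjusted p = 0.24).

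The shut-off proteins differed in pace. Sag, the arrestin of rods, had 11.2 to 37.2 CPM over the D18 libraries, the highest in replicate 2, against 5.84, 7.4 and 5.28 CPM at D15 (log2 change 1.85, SE 0.4, adjusted p = 0.0086), a call that was lost without D15 replicate 1, D15 replicate 3 or D18 replicate 2. It had 108, 309 and 291 CPM at D22 (3.41 against D18, SE 0.4, adjusted p = 4.6e-06), 454, 1050 and 452 at D25, and 878, 583 and 1160 at D32. The D32 and D25 libraries of Sag overlapped and the step between them was 0.42 (SE 0.36, adjusted p = 0.44). By day means Sag was the member nearest to its D32 level at D25, but that D25 mean holds the 1050 CPM of replicate 2. With 1 library left out the step ran from 0.16 to 0.95 for Sag and from 0.57 to 1.01 for Pde6b, so the rank is not firm. Grk1, the kinase that phosphorylates the active pigment, was called higher at D22 against D18 and at D32 against D25, but not in the step between. It had 26, 28.4 and 25.8 CPM at D22, against 9.48, 13.4 and 10.9 CPM at D18 (1.25, SE 0.29, adjusted p = 0.0068), then 32.6, 46.6 and 28.7 at D25, a step of 0.43 that did not pass (adjusted p = 0.5). At D32 it had 215, 214 and 271 CPM, against those D25 values, a change of 2.7 (SE 0.3, adjusted p = 1.9e-07), and the groups did not overlap.

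Set against D10, the first day called higher and called on every later day was D15 for Gngt1, D18 for Pde6b, Pde6g, Cngb1 and Sag, D22 for Pde6a, Cnga1 and Grk1, and D32 for Gnat1. The counts called higher against D10 were 1 of 9 at D15 (background 9%), 5 at D18 (13.7%), 8 at D22 (21.7%), 8 at D25 (23.9%) and 9 at D32 (27.7%). These comparisons share the D10 libraries. At D18 the log2 change against D10 was 5.12 for Gngt1, 5.14 for Pde6b, 3.55 for Pde6g, 2.17 for Cngb1 and 1.98 for Sag. The D18 onset of Cngb1 (adjusted p = 0.023) rests on D18 replicate 2, without which the change was 0.63 (adjusted p = 0.58), and within set 2 it was 0.49 (adjusted p = 0.68). Within set 2 that of Sag was 1.32 (adjusted p = 0.056), and the count at D18 was 3. Gnat1 had a change of 0.92 at D25 against D10 that did not pass (adjusted p = 0.081) and passed with the set as a term (0.93, adjusted p = 0.038).

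**Figure D2:**
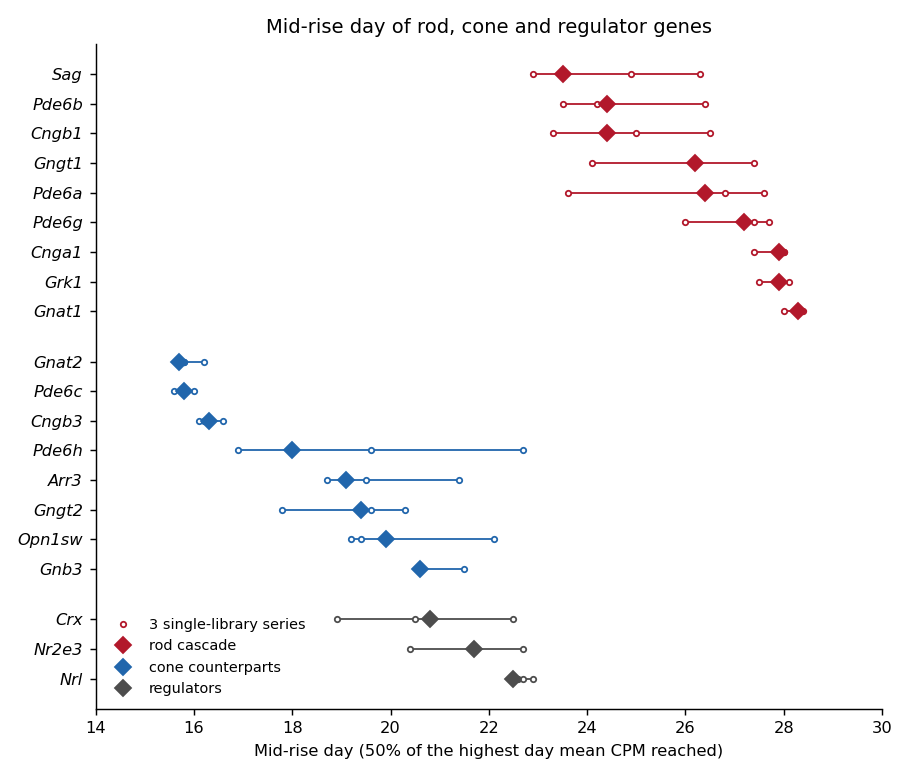
Mid-rise day, at which the mean level of a gene first reached 50% of its highest day mean (diamonds; open circles are the 3 series of equally numbered libraries) for the 9 rod genes, 8 of the 10 tested cone counterparts and 3 photoreceptor regulators. The rod genes lie between day 23.5 and day 28.3, to the right of the cone genes drawn, which lie between day 15.7 and day 20.6.

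The mid-rise day, at which a gene first reached 50% of its highest day mean by linear interpolation between day means, ordered the members otherwise than the day of onset did. All 9 were highest at D32. Sag reached 50% of its D32 mean at day 23.5 (SD 1.7 over 3 series of equally numbered libraries), Pde6b at 24.4 (SD 1.52) and Cngb1 at 24.4 (SD 1.61). Gngt1 followed at 26.2 (SD 1.67), Pde6a at 26.4 (SD 2.1) and Pde6g at 27.2 (SD 0.88). Cnga1 at 27.9 (SD 0.36), Grk1 at 27.9 (SD 0.28) and Gnat1 at 28.3 (SD 0.2) were the last. Gngt1, the first called higher, thus came after Sag, Pde6b and Cngb1 on this measure. The series made from replicate 2 was the earliest for all 9 members, and the series of each member overlapped those of its neighbour in this order. No library falls between D25 and D32, so mid-rise days past day 25 depend on the straight line drawn over that gap. At D25 the mean was 74.6% of the D32 mean for Sag, 60.5% for Cngb1 and 58.1% for Pde6b, 27.5 to 39.6% for Gngt1, Pde6a and Pde6g, 15.4% for Grk1, 15% for Cnga1 and 5.49% for Gnat1.

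Levels of different genes were compared per length, as each transcript's estimated count divided by its length, summed per gene and scaled over all genes to a total of 1000000 per library (TPM). At D32 Pde6g was the highest at 1160, 1160 and 1440 TPM (1250 ± 161, SD, n = 3), followed by Sag at 924, 642 and 1190 (920 ± 276), Gngt1 at 783, 771 and 1150 (902 ± 217) and Pde6b at 693, 785 and 760 (746 ± 47.8). Pde6g was above Sag within each of the 3 libraries and overlapped neither Gngt1 nor Pde6b, while the order of Sag, Gngt1 and Pde6b was not resolved, since their libraries overlapped. Cnga1 had 184, 187 and 249 TPM (207 ± 36.9), Cngb1 155, 222 and 228 (202 ± 40.8) and Gnat1 121, 91.3 and 326 (179 ± 128). All libraries of Pde6b lay above all of Cnga1, while Cnga1, Cngb1 and Gnat1 overlapped. Grk1 had 66.9, 70 and 82.5 TPM (73.2 ± 8.24) and Pde6a 21.4, 14.3 and 29.5 (21.7 ± 7.64), each without overlap with the gene above it. Together the 9 genes made up 0.411, 0.394 and 0.546% of the per-length total in the D32 libraries, against 0.00471, 0.00732 and 0.00631% at D18. With the gene table divided by the merged exon length in place of transcript lengths, Pde6g (1220) stayed first and Pde6a (26) last, but Pde6b (683) came before Gngt1 (512) and Sag (378), Cngb1 (181) before Cnga1 (134), and Grk1 (103) before Gnat1 (88.4).

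**Figure D3:**
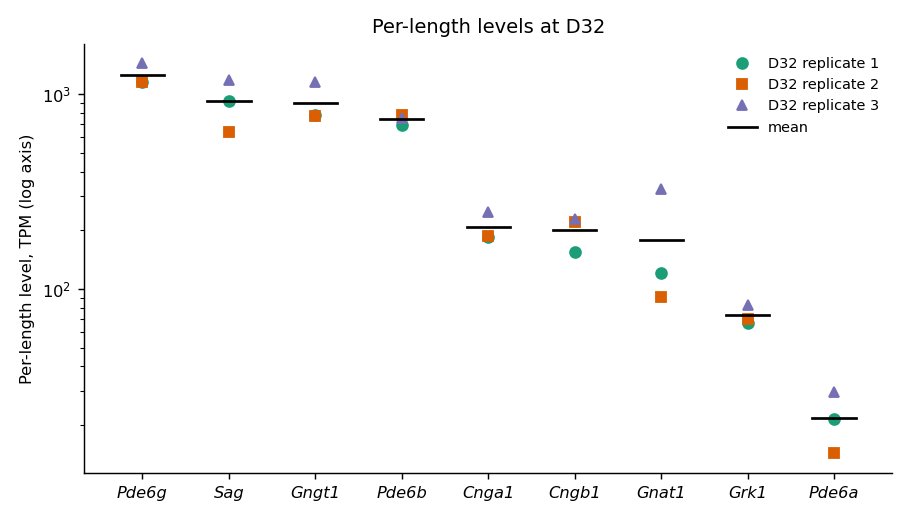
Per-length level of the 9 genes in each D32 library (TPM, log axis), with the mean as a line, ordered from the highest to the lowest mean. Pde6g lies at 1160 to 1440, Sag, Gngt1 and Pde6b overlap one another below it, and Grk1 and Pde6a stand clear of the others at 66.9 to 82.5 and 14.3 to 29.5.

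Subunits of 1 complex did not keep a fixed ratio of RNA. Cnga1 over Cngb1 was 0.0721, 0.0931 and 0.171 in the D22 libraries, 0.285, 0.215 and 0.347 at D25, and 1.19, 0.839 and 1.09 at D32, with no overlap between days. Cngb1 is summed here over all its transcripts. Its full-length Cngb1-001 held 36.8 of 155, 47.1 of 222 and 51 of 228 TPM in the D32 libraries. The coding Cnga1-001 had 174, 172 and 238 TPM there, above Cngb1-001 in each library. Pde6g over Pde6b was 0.738, 0.395 and 1.1 at D22, 0.643, 0.827 and 0.951 at D25, and 1.67, 1.48 and 1.89 at D32, so that only D32 stood apart. Pde6a over Pde6b stayed small, at 0.0148, 0.00859 and 0.0162 at D22, 0.0158, 0.0201 and 0.0215 at D25, and 0.0309, 0.0182 and 0.0388 at D32. The catalytic subunits, which pair in the rod enzyme, thus differed in RNA level by a wide margin on all 3 days. Gngt1 over Gnat1 was 21.8, 17.8 and 38 at D22, 44.9, 46.7 and 27.7 at D25, and 6.47, 8.44 and 3.54 at D32, the lowest on the day when Gnat1 rose. Gnat1 over Gnb1, the beta subunit that many other cells make too, was 0.00609, 0.00876 and 0.0034 at D22, 0.00532, 0.00524 and 0.00782 at D25, and 0.059, 0.0421 and 0.139 at D32, where its mean of 0.0801 was 0.0505 without replicate 3. Gnat1, too, is summed over all its transcripts. Its coding Gnat1-001 held 1.53 of 3.51, 0.11 of 6.95 and 0.454 of 2.32 TPM in the D22 libraries. At D25 it held 3.11 of 6.54, 5.52 of 8.8 and 7.24 of 8.63 TPM. The D22 and D25 ratios with Gnat1 thus rest in part on transcripts other than the coding one. The ratios are between estimated counts per length and were not tested.

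**Figure D4:**
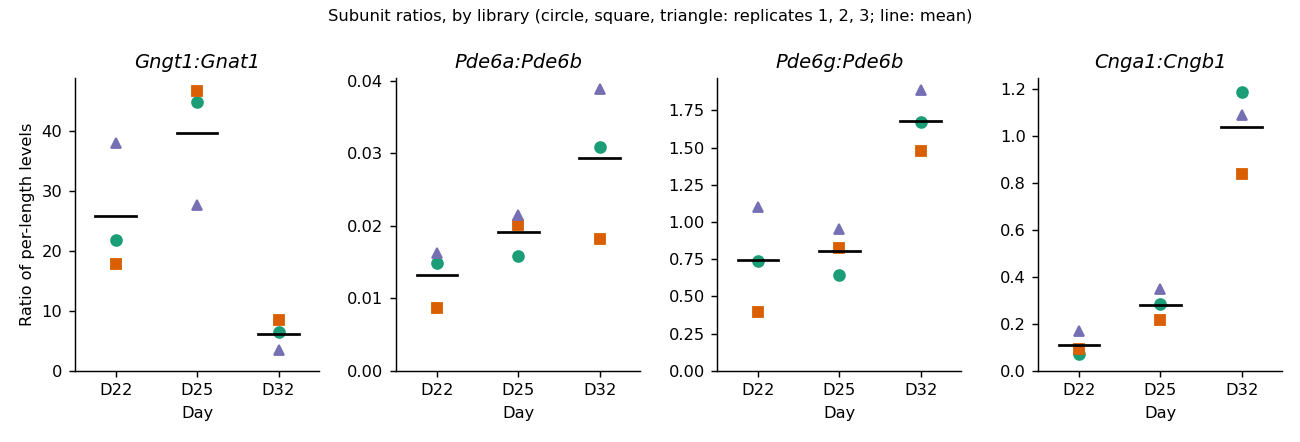
Ratio of the per-length levels of subunits of 1 complex in the libraries of D22, D25 and D32 (symbols are replicates, lines are means; each panel has its own axis starting at 0). With all transcripts of a gene summed, Cnga1:Cngb1 climbs from day to day to about parity at D32. Pde6a:Pde6b stays at or below 0.0388, and Gngt1:Gnat1 is lowest at D32.

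The transcript table showed which RNAs lay behind the early counts. The gene estimate is not the sum of the transcript estimates in these tables: at D32 it was 0.393 times that sum for Gnat1, 2.03 times for Cngb1 and 0.765 to 1.49 times for the other 7 members. For Gnat1, most early counts were on Gnat1-005, a transcript annotated as non-coding, with 95.64 estimated counts over the 3 D0 libraries. The protein-coding Gnat1-001 had 10.45 counts at D0, 12.38 at D10, 23.4 at D18, 47.94 at D22, 387.5 at D25 and 10830 at D32 (sums of 3 libraries). In a test of all 58369 transcripts with enough counts, Gnat1-001 was called higher than at D10 from D25 on (log2 change 4.95, SE 1.08, adjusted p = 0.0016), whereas the gene estimate was first called at D32. For Sag, the counts to D12 were mostly on Sag-002, Sag-003 and Sag-005, annotated with retained introns, while the coding Sag-001 had 2, 0, 14.14, 12.28 and 8.504 counts at D0, D4, D7, D10 and D12, then 72.32 at D15, 751.8 at D18, 10170 at D22, 31050 at D25 and 39270 at D32. Grk1 has a single transcript in the table, of 7425 bases, which held 254.2 to 397.8 counts a day from D0 to D15.

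**Figure D5:**
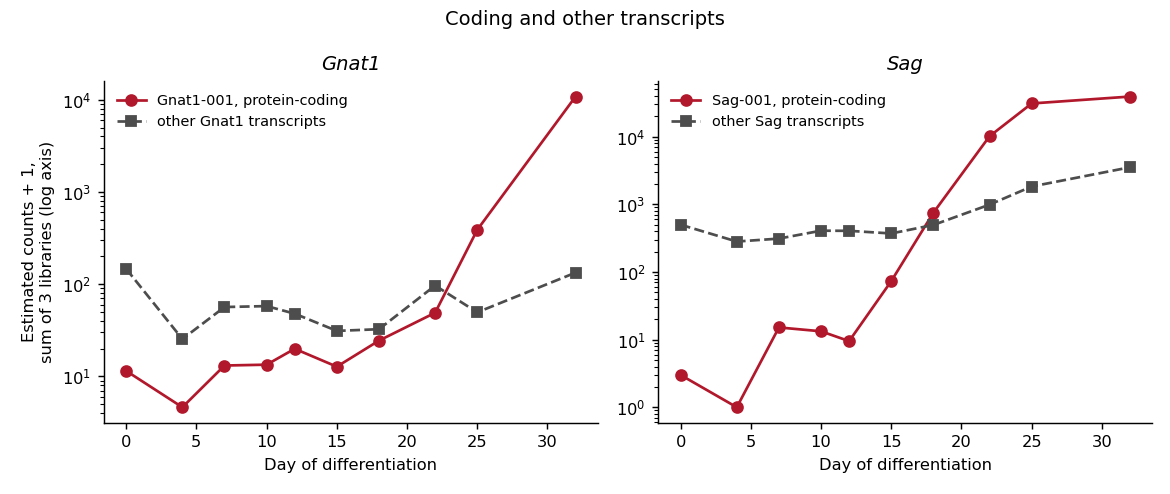
Estimated counts of the protein-coding transcript (red) and of all other transcripts (grey) of Gnat1 and Sag, as the sum of the 3 libraries of a day plus 1 on a log axis. Before D18 the other transcripts hold most counts of both genes, and the coding transcript passes them by D18 in Sag and at D25 in Gnat1.

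Cngb1 is known for short transcripts of its 5′ part, which encode glutamic acid-rich proteins of the rod outer segment. Cngb1-004, of 1512 bases, had 0 counts on every day to D15, 1.326 at D18, 423.4 at D22, 2476 at D25 and 3429 at D32, and the full-length Cngb1-001, of 6189 bases, had 37.96, 610.5, 3850 and 7425 on the last 4 of these days. Per length, the short form stood above the long form in all 9 libraries from D22 on. Their ratio was 1.5, 2.05 and 4.44 at D22, 1.76, 2.98 and 2.71 at D25, and 1.71, 2.4 and 1.56 at D32. Taken by coding transcript, the members called higher than at D10 numbered 0 of 9 at D12 (background 0.103%), 1 at D15 (2.22%), 4 at D18 (4.21%), 8 at D22 (8.91%), 9 at D25 (10.7%) and 9 at D32 (13.5%), with Cngb1-001 first called at D22. The transcript test takes no account of the uncertainty with which reads were shared among transcripts.

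The replicates differed in the levels of the members. Replicate 2, the set 1 library, was the highest of 3 for 6 of 9 members at D18, 6 at D22 and 9 at D25, while at D32, where all libraries are of set 2, replicate 3 was the highest for 9. With day in the model, set 1 stood above set 2 over D10 to D25 for all 9 members, and 3 passed the test beside 4.71% of all genes: Cngb1 (log2 difference 1.28, SE 0.25, adjusted p = 0.0056), Gnat1 (0.75, SE 0.18, adjusted p = 0.022) and Grk1 (0.41, SE 0.11, adjusted p = 0.044). The sums of the rod markers moved the same way, at 912, against 387 and 709 CPM at D22, and 2050, against 1240 and 1150 CPM at D25, in replicate 2 against replicates 1 and 3. Processing set and the stage of the replicate 2 pools cannot be told apart. D32 has no set 1 library. With the set as a term Pde6b (1.01, adjusted p = 0.0097) and Cngb1 (1.28, adjusted p = 0.0035) were also called higher at D32 against D25.

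The cone counterparts of the members ran on an earlier course. Of 11 listed, 10 were tested, and from D18 to D32 2 were called higher and 4 lower (median log2 change -0.83), beside 20.6% of all tested genes higher and 23.7% lower and 9 of 9 members higher. The list also holds Gnb3, Opn1sw, Opn1mw and Slc24a2, cone cascade genes that pair with none of the 9 members. The summed level of the list was 365, 603 and 571 CPM at D18, 1010, 1180 and 905 at D22, 1400, 1760 and 861 at D25, and 833, 860 and 794 at D32. Much of it came from Gnb3, with a mean of 676 CPM at D32, and Gngt2, with 567 CPM at D25, each on its highest day. Gnb3, the cone transducin beta subunit, had the largest change at 1.65 (SE 0.28, adjusted p = 2.3e-05) and Pde6c, the cone phosphodiesterase catalytic subunit, the lowest at -4.47 (SE 0.47, adjusted p = 2.4e-08). Mid-rise days were day 15.7 for Gnat2, 15.8 for Pde6c, 16.3 for Cngb3, 18 for Pde6h, 19.1 for Arr3, 19.4 for Gngt2, 19.9 for Opn1sw and 20.6 for Gnb3, all before the earliest member, Sag. Cnga3 was highest at D0 and has no mid-rise day in this sense. Slc24a2, the cone exchanger, was highest at D15 with a mid-rise day of 7.8, and was called higher again at D32 against D25 (1.54, SE 0.44, adjusted p = 0.012).

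The rod form overtook its cone paralog at different days. Per length, Pde6b over Pde6c was already at least 4.63 in every D22 library, 51.6, 51.5 and 69.7 at D25, and 415, 853 and 480 at D32. Sag stood above Arr3, cone arrestin, in all libraries of these days (15.9, 39.1 and 65 times at D22), as did Pde6g above Pde6h. Gnat1 over Gnat2, the cone alpha subunit, was 0.119, 0.656 and 0.126 at D22, 0.873, 0.568 and 3.02 at D25, and 9.21, 14.1 and 36.1 at D32. In every D22 library most of the Gnat1 level was on transcripts other than the coding Gnat1-001. Gngt1 over Gngt2 was 0.0454, 0.0635 and 0.0676 at D22, 0.145, 0.15 and 0.193 at D25, and 1.65, 1.7 and 2.62 at D32. For both transducin subunits the rod form stood above the cone form in all 3 libraries at D32 and not at D22 or D25, although Gngt1 had been the first member called higher. Cngb1 over Cngb3 was 45, 68.9 and 60.8 at D32, against 0.792, 2.02 and 1.76 at D22, and Cnga1 over Cnga3 was 137, 220 and 187 at D32, against 0.201, 2.71 and 1.66 at D22. The full-length Cngb1-001 alone had 0.97, 5.79 and 3.23 TPM at D22, below Cngb3 in each library (9.81, 15.4 and 11.6).

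Among 14 other genes of the rod cascade, 13 were called higher at D32 than at D18 (median log2 change 3.77), beside 20.6% of all tested genes. Slc24a1, the sodium, calcium and potassium exchanger of the rod outer segment, had the largest change at 8.79 (SE 0.48, adjusted p = 1.3e-13), with 188, 195 and 245 CPM at D32, against 0.223, 0.659 and 0.54 CPM at D18. Guca1a, a guanylate cyclase activator, was the 1 gene that did not pass (-0.4, SE 0.49, adjusted p = 0.54). Mid-rise days differed within this list: those of Rcvrn (day 28.1) and Slc24a1 (28.4) lay beside that of Gnat1, and that of Gnb1 (23.2) came before all 9 members. Of 11 photoreceptor regulators 6 were called higher and 2 lower at D32 than at D18 (median 0.77), beside 20.6% of all tested genes higher and 23.7% lower. Nrl had the largest change (4.5, SE 0.34, adjusted p = 6.2e-11) and Prdm1, a factor of photoreceptor precursors, the lowest (-2.36, SE 0.28, adjusted p = 1.8e-07). Mid-rise days of Crx (day 20.8), Nr2e3 (21.7) and Nrl (22.5) all came before those of the 9 members.

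Markers of other cell types changed over the same days. From D18 to D32 4 of 5 bipolar and 3 of 4 Müller glia markers were called higher (Glul, of the glia list, lower), 3 of 3 ganglion and 3 of 4 progenitor markers lower, and 2 of 4 cone markers lower with 1 higher. Of all tested genes 20.6% were called higher and 23.7% lower over these days. The bipolar sum was 262, 263 and 283 CPM at D32, against 66.4, 57.8 and 66.9 CPM at D18, and the progenitor sum 607, 682 and 611 CPM at D32, against 1590, 1570 and 1610 CPM at D18. Amacrine markers had 1 of 3 higher, horizontal markers 1 higher and 1 lower of 3, and of 3 pigment epithelium markers 2 were tested and neither was called. The summed pigment epithelium markers were uneven, at 384, 1.03 and 327 CPM at D32, and did not follow the members, of which replicate 3 was the highest. The part of cell composition in the members' changes was not tested.

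Across the 10 day means of log2(CPM + 1), the members' own profiles correlated pairwise between 0.631 (Gngt1 and Gnat1) and 0.995 (Sag and Pde6b), which is a description over days that share libraries. Of 12881 other genes with a highest day mean of at least 10 CPM, Sox30 (Pearson r = 0.9975), Cplx4 (0.9955), Gm14505 (0.9937), Rcvrn (0.9929) and RP23-428N8.3 (0.9929) were nearest to the mean profile of the members, and AI847159, Cabp5, Fabp12 and Cacna1f (0.991) were also among the 10 nearest. The nearest gene was Slc24a1 for Gnat1 (0.9822), Lrit1 for Gngt1 (0.9976), AI847159 for Pde6a (0.9954), BC027072 for Pde6b (0.997), Fabp12 for Pde6g (0.9992), A930006I01Rik for Cnga1 (0.9955), 1110018N20Rik for Cngb1 (0.9956), Nxnl1 for Sag (0.9937) and Syn2 for Grk1 (0.9939). Gnat1 had the lowest such value of the 9.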

How the data were processed

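RNA-seq of polyadenylated RNA was analysed in 30 libraries (10 days with 3 each), from 3 tables. Trimming used Trimmomatic 0.36 and quantification kallisto 0.42.4 with GRCm38.p4, followed by edgeR normalisation, per the submitters' processing notes. The authors deposited an estimated count per gene and an estimated count per transcript, neither of them whole numbers, and a normalised signal per gene (CPM), which was used here in alternatives only. How strand entered the counting, and how transcripts were combined into genes, is not given in the sources used here; kallisto shares reads between similar transcripts by estimate. Columns left out because their names fit none of the samples numbered 3 per table, or 9 altogether.

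For the tests, edgeR 4.0.16 (R 4.3.3) was run on the gene estimates rounded to whole counts: genes kept by filterByExpr with days as groups (minimum count 10, minimum total 15), TMM factors (0.524 to 1.162), 1 model with a mean per day over all 30 libraries, quasi-likelihood F tests and Benjamini-Hochberg adjustment over 19897 genes. Levels are TMM-scaled CPM; before that scaling 1 CPM stands for about 16.77 to 24.53 counts, so counting error matters only near 0. Transcripts (58369 of 113468) were tested the same way, an addition made after seeing the data. Between-gene levels divide transcript estimates by transcript length. Named genes were all members, each list's largest and smallest D32 against D18 change, the cone counterparts, Crx, Nrl and Nr2e3, and the nearest profiles, with Gnb1 added for a subunit ratio; marker lists are given by counts and sums. Alternatives were RLE factors, library size alone, 2 other filters, limma 3.58.1 on the deposited CPM plus 1 or 0.1, DESeq2 1.42.0, the replicate block, the processing set as a term, set 2 alone, pairs of days alone and each library left out. Members and lists were chosen with earlier results of these data known. Of the lists 1 gene, and of the nearest profiles 1, is not reported here; the list counts and sums leave it out.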

Additional observations from a re-analysis of the deposited data

How the results depend on the processing

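Called changes of members were followed for sign in the steps from D12 on, at D18 and D25 against D10, and at D32 against D18. None of these took the other sign under the alternatives run. The sign of the other calls, such as those at D4 and D7, was not followed. Members called higher at D7 against D4 numbered 2 with library size alone, 1 with limma on the deposited CPM plus 0.1 and 1 with DESeq2, against 0 as reported, and at D15 against D12 2 with limma plus 0.1, against 1. At D25 against D22 they numbered 4 with the 6 libraries of the pair and 3 within set 2, against 7. Within set 2 the count was 2 at D18 against D15 and 3 at D18 against D10, against 5 in each, and 1 cone counterpart was higher from D18 to D32, against 2. With merged exon length the order at D32 turned round for Cnga1 and Cngb1, whose ratio was 0.748, against 1.04, and for Gnat1 and Grk1 (88.4 and 103, against 179 and 73.2). The causes were not tested. Leaving out each library gave counts of 0 to 1 at D7 against D4, 1 to 2 at D15 against D12, 3 to 5 at D18 against D15 and 3 to 7 at D25 against D22, and 1 to 2 cone counterparts (1 without D18 replicate 2, D18 replicate 3, D32 replicate 1 or D32 replicate 3).

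Among 2656 values of single genes under an alternative, 2585 kept direction and side of the threshold or stayed within the spread, 43 lost the call, 17 gained it and 11 mid-rise days or levels moved by more than the spread. By per-length levels the median mid-rise day was 26.8, against 26.4. The labels give no shared origin for equal numbers, and 16 to 21 of 45 pairs of equal number had a correlation over 0.1, so the samples were not treated as paired; 21 of 30 libraries correlated best with their own number, a hint of pairing from the data and not from the design. With the replicate block the count at D32 against D25 was 7, against 6, and the other member counts did not move. From D7 to D18 Pde6a had 0 to 4.9 counts a library and Cnga1 0 to 1.47, so small changes of either over these days were not detectable at this depth.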
